A study of Mus musculus with 69 samples.

Results

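The collecting duct of the kidney is built and kept by a small set of transcription factors, and 10 of them were followed here: Tfcp2l1, Gata2, Gata3, Pax2, Pax8, Grhl2, Elf5, Emx1, Hmx2 and Dlx5. They were taken by symbol from the count matrix, where they are 10 of 24411 genes. All 10 had enough counts over the libraries to be tested, as had 21175 genes in all.

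The collecting duct holds principal cells, which take up water and sodium under vasopressin and aldosterone, and intercalated cells, which move acid and base. Pax2, Pax8 and Gata3 are known for the formation of the nephric duct and ureteric bud, from which the duct grows. Tfcp2l1, Gata2, Grhl2 and Elf5 are known in the mature duct for its cell types, its aquaporin and its tight junctions. Emx1, Hmx2 and Dlx5 are homeobox genes better known from the forebrain, the inner ear and the skeleton.

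The libraries were made from mice in which Cre recombinase switches on uracil phosphoribosyltransferase (Uprt), an enzyme absent from mouse cells that puts 4-thiouracil (4-TU) into new RNA. The labels give the genotypes Hoxb7Cre;UPRTf/+ and Atp6b1v1Cre;UPRTf/+, the latter for the gene otherwise written Atp6v1b1. Uprt sits in 1 copy of the Rosa26 locus, Hoxb7Cre acts in a range of cell types of the collecting duct, and the other driver acts in intercalated cells, cells with features of both types and some scattered interstitial cells. All mice, those behind the total RNA included, received 430 mg/kg of 4-TU 4 hours before the kidney was taken, and tagged RNA was biotinylated and pulled down on streptavidin. Pulldowns came from control mice (10 libraries for Hoxb7, 11 for Atp6b1v1), from mice given 4-TU 24 hours after a clamp of 10 minutes (iAKI, ischemia; 7 and 6) and from mice after 72 hours of restricted food and water (vAKI, volume depletion; 7 and 7). The mice were 5.5 months old except for 2 female Hoxb7 controls and 3 male Atp6b1v1 controls of 3 months. Another 21 libraries hold total kidney RNA of control mice of both genotypes, without pulldown. Of these, 5 were also of 3 months, 2 from female Hoxb7 and 3 from male Atp6b1v1 mice. The labels do not tie each library to a mouse, so p-values measure the spread between these libraries. In order of library number, control pulldowns and control total libraries run alike in genotype, sex and age. They may come from the same mice, were fitted as independent, and no fit paired by that order was run.

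The libraries held 12618062 to 30305464 counts, with a median of 20868430. Levels are given in CPM, counts scaled to a common library size by edgeR's TMM factors. A gene was called when edgeR's quasi-likelihood test gave a Benjamini-Hochberg adjusted p under 0.05 over all genes and its log2 fold change was 1 or more, up or down. In the Hoxb7 controls 5 of 8 principal cell markers and 4 of 8 intercalated cell markers were called higher than in total RNA, where 32.5% of all genes were called, up or down. In the Atp6b1v1 controls 1 and 5 were called higher, where 27.7% of all genes were called. Proximal tubule RNA was still present, and the summed level of 6 of its markers ran from 1733 to 3106 CPM in the male Hoxb7 controls and from 9826 to 15468 CPM in total RNA of males. No marker of the principal cell list was at 0 in any control pulldown. In bulk RNA, fewer cells of a type and less RNA per cell cannot be told apart.

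RefSeq promoters of build GRCm38.p6 were given for 8 of the 10 members, 13 in all. Grhl2 and Dlx5 are named only. The promoters of Gata3, Pax2 and Elf5 are shown because these 3 members fell together in the male Hoxb7 pulldowns after volume depletion. Each line gives the 250 bases before a transcription start and the first transcribed base, 5′ to 3′ on the strand of the gene. Of the 3 starts listed for Pax2 the middle one is shown. Capitals mark that base and any motif match.
Gata3, chr2:9878600-9878850, minus strand: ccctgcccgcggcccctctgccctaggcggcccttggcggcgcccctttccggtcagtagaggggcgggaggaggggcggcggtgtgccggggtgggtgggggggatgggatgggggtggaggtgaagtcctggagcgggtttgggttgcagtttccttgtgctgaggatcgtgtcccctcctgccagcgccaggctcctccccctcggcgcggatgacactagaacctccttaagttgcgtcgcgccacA
Pax2, chr19:44755502-44755752, plus strand: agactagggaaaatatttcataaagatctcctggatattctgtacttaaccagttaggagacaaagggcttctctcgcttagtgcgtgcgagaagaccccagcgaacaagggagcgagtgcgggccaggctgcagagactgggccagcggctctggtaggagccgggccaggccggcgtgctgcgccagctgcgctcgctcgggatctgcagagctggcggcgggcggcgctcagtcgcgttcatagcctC
Elf5 first start, chr2:103411848-103412098, plus strand: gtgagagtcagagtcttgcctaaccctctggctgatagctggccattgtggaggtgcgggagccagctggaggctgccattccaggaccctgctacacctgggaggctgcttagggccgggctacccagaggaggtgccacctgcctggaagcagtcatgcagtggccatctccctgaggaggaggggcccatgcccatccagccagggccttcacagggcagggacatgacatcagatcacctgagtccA
Elf5 second start, chr2:103423818-103424068, plus strand: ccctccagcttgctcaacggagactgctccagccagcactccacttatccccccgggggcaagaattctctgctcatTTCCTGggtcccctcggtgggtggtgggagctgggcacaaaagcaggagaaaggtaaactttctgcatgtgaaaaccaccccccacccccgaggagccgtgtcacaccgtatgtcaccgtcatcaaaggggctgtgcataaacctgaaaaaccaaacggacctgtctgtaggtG
Motifs were searched on both strands in the full windows of 300 bases, which run 50 bases into the gene. AGATAA, bound by GATA factors, was in 0 of the 13 member promoters and in 11.2% of 32851 promoters of the same length. CAGGAA, the core of ETS factors such as Elf5, was in 2 of 13, against 30.6% of all. Its matches lie 209 bases before the start of Pax8 and 173 bases before the second start of Elf5. AACCGGTT (GRHL), CCAGNNNNNNCCAG (TFCP2L1) and TAATTA (homeobox) were in 0 of 13, and in 0.146%, 3.44% and 5.29% of all promoters. The absence of a match says only that these letters are not in these windows.

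Levels of different genes were compared in TPM, the transcript share per length, which divides counts by exon length. In the Hoxb7 controls Tfcp2l1 led with a median of 1532 TPM (776 to 3132), apart from all others. Pax8 came next at 324 TPM (202 to 470), then Gata3 at 195 TPM (104 to 295), Gata2 at 110 TPM and Pax2 at 95.1 TPM. Emx1 (67.3 TPM), Hmx2 (52.9 TPM), Grhl2 (35.8 TPM) and Elf5 (34.7 TPM) followed, and Dlx5 was last at 0.0498 TPM (0 to 0.858). Each neighbour in this order from Pax8 to Elf5 overlapped the next in range, so the order of neighbours is not set apart from the spread. Members further apart in the order could separate: the lowest Pax8 value lay above the highest of Gata2 (135 TPM) and Pax2 (136 TPM).

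The same leader was found in the Atp6b1v1 controls, where Tfcp2l1 had a median of 1827 TPM (1221 to 2084). Pax8 was at 204 TPM and Emx1 at 104 TPM (75.9 to 134), a place ahead of Gata3 at 101 TPM (78.8 to 140). Elf5 was at 8.83 TPM (4.79 to 16.0), below Grhl2 at 24.9 TPM (22.4 to 34.6) with no overlap. In total kidney RNA the order began with Tfcp2l1 at 302 TPM (176 to 415), Pax8 at 85.3 TPM and Emx1 at 42.1 TPM, and ended with Grhl2 at 4.67 TPM, Elf5 at 3.09 TPM and Dlx5 at 0 TPM.

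The control pulldowns were compared with total kidney RNA in the 42 control libraries, with sex as a covariate. The pulldown holds RNA tagged over 4 hours and total RNA holds older and newer RNA of the whole kidney, so the cells an RNA came from and its turnover cannot be told apart in these folds. In the Hoxb7 pulldown 7 of the 10 members were called higher and 0 lower, where 32.5% of all genes were called, and 9 passed the adjusted p alone, against 66.6% of all genes. The median log2 fold change of the members was 1.48, that of all genes 0.11. Elf5 and Gata3 led with folds of 5.63 and 5.44. In the Atp6b1v1 pulldown 5 members were called higher and 0 lower, against 27.7% of all genes, and 8 passed the adjusted p alone, against 63.8%; their median was 0.80.

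**Figure D1:**
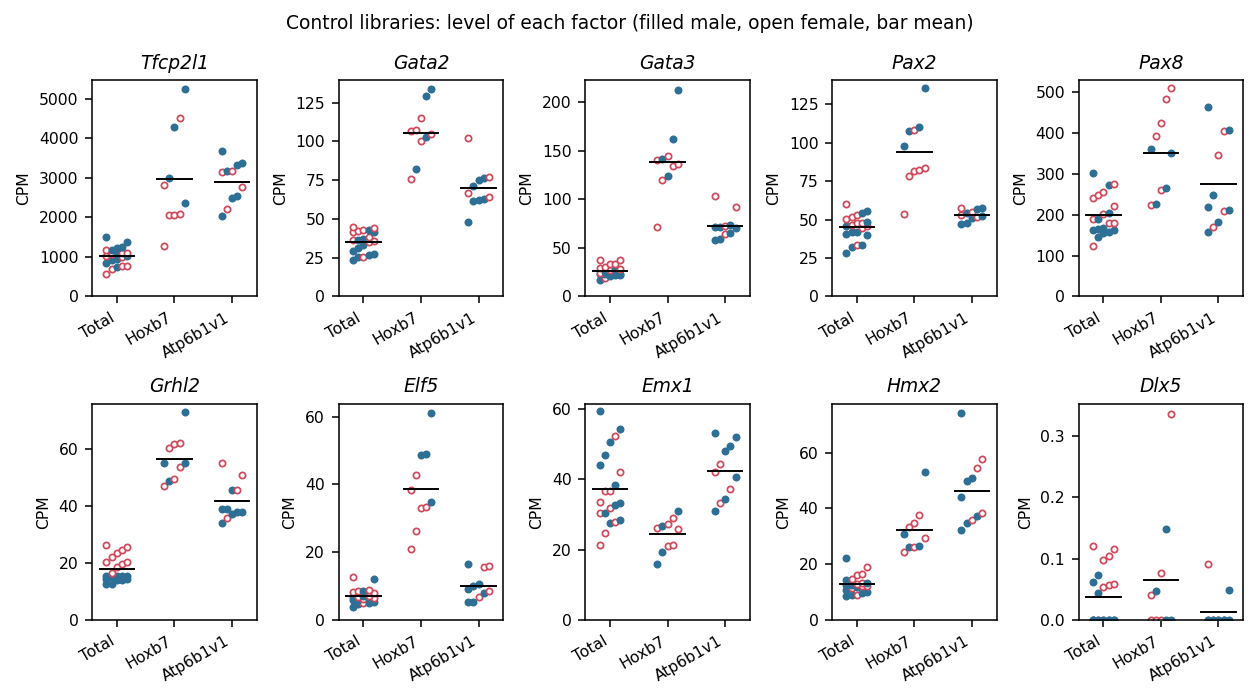
CPM of each factor (vertical axes, each from 0) in the control libraries of total kidney RNA (21), the Hoxb7 pulldown (10) and the Atp6b1v1 pulldown (11). Each point is 1 library, filled for males and open for females, and the bar is the mean. Elf5 lies between 20.8 and 61.0 CPM in the Hoxb7 pulldown, above all libraries of the other groups.

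Gata3, the zinc finger factor that keeps duct cells from taking other fates, had a lowest, median and highest level of 17.3, 23.8 and 37.2 CPM in total RNA. It was at 71.5, 139 and 212.5 CPM in the Hoxb7 pulldown, and at 58.4, 71.1 and 103 CPM in the Atp6b1v1 pulldown. Both pulldowns lay above total RNA with no overlap, with log2 fold changes of 2.44 (SE 0.10, adjusted p = 5.12e-25) and 1.54 (SE 0.10, adjusted p = 6.89e-18). Its exons share 155 bases with an antisense gene, Gm13256, and 77 with 9230102O04Rik on its own strand, so its reads are uncertain there. The same holds for Pax8 (367 bases with Gm13415, other strand), Grhl2 (169 with Gm16136, other strand) and Tfcp2l1 (130 with Gm23497, own strand). Counting was by the default of HTSeq, which takes reads by strand, and whether the library kit kept the strand is not given in the sources used here.

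Gata2, its relative, which binds the control region of Aqp2, was at 23.5, 36.7 and 44.55 CPM in total RNA, 75.7, 106 and 134 CPM in the Hoxb7 pulldown and 47.9, 66.95 and 102 CPM in the Atp6b1v1 pulldown. The groups again did not overlap with total RNA, at log2 fold changes of 1.61 (SE 0.09, adjusted p = 6.01e-20) and 1.05 (SE 0.09, adjusted p = 9.79e-14). Tfcp2l1, a CP2 family factor needed for the mix of principal and intercalated cells, had a lowest, median and highest level of 568, 1032 and 1492 CPM in total RNA. It was at 1270, 2593 and 5233 CPM in the Hoxb7 pulldown and at 2038, 3135 and 3687 CPM in the Atp6b1v1 pulldown. It overlapped with total RNA in the first and not in the second, and it was called in both, at 1.60 (SE 0.14, adjusted p = 2.87e-14) and 1.53 (SE 0.14, adjusted p = 6.02e-14) on the log2 scale.

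Grhl2, a grainyhead factor that sets the tightness of the duct epithelium, went from 12.5, 15.6 and 26.3 CPM in total RNA to 47.0, 55.2 and 73.1 CPM (Hoxb7) and 34.2, 38.9 and 55.2 CPM (Atp6b1v1). It did not overlap with total RNA in either, with log2 fold changes of 1.70 (SE 0.08, adjusted p = 3.92e-23) and 1.32 (SE 0.08, adjusted p = 2.90e-19). Hmx2 was called in both too, from 8.40, 12.45 and 22.4 CPM in total RNA to 24.2, 30.1 and 53.0 CPM (Hoxb7) and 32.3, 44.2 and 74.3 CPM (Atp6b1v1). Its log2 fold changes were 1.35 (SE 0.13, adjusted p = 6.63e-13) and 1.89 (SE 0.13, adjusted p = 4.20e-18).

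Elf5, an ETS factor known as a mark of principal cells, was at 3.88, 6.71 and 12.6 CPM in total RNA and 20.8, 36.5 and 61.0 CPM in the Hoxb7 pulldown, without overlap (log2 fold change 2.49, SE 0.17, adjusted p = 6.15e-18). In the Atp6b1v1 pulldown it was at 5.28, 9.12 and 16.6 CPM, which overlapped with total RNA. The log2 fold change there was 0.56 (SE 0.17, adjusted p = 0.0036). Pax2, the paired-box factor of duct and early nephron, was at 28.4, 46.1 and 59.9 CPM in total RNA, 53.55, 90.85 and 135 CPM in the Hoxb7 pulldown and 47.1, 52.9 and 57.5 CPM in the Atp6b1v1 pulldown. It was called in the first (1.10, SE 0.10, adjusted p = 5.26e-14) and stood at 0.28 (SE 0.10, adjusted p = 0.00991) in the second. Among females alone the Hoxb7 value of Pax2 was 0.80, below the fold limit.

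Pax8, which shares roles with Pax2 and is also made by other tubules, was at 122.5, 189 and 302 CPM in total RNA, 224, 355 and 509 CPM in the Hoxb7 pulldown and 158.5, 219 and 464 CPM in the Atp6b1v1 pulldown. Its log2 fold changes of 0.82 (SE 0.15, adjusted p = 5.89e-06) and 0.53 (SE 0.15, adjusted p = 0.00175) were below the limit of 1. Emx1 was at 21.4, 33.5 and 59.3 CPM in total RNA, 15.8, 26.04 and 31.0 CPM in the Hoxb7 pulldown and 31.1, 42.2 and 53.1 CPM in the Atp6b1v1 pulldown. It was the 1 member that was lower in the Hoxb7 pulldown than in total RNA by adjusted p, at -0.55 (SE 0.13, adjusted p = 0.000251). In the Atp6b1v1 pulldown it was at 0.21 (SE 0.12, adjusted p = 0.1205). Dlx5 was near the floor everywhere, with 14 counts in all over the 21 total libraries, 16 over the 10 Hoxb7 libraries and 3 over the 11 Atp6b1v1 libraries.

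One female Hoxb7 control, replicate 6, was the lowest of its group for Tfcp2l1, Gata2, Gata3, Pax2, Elf5 and Hmx2, at 1270 CPM of Tfcp2l1 and 53.55 CPM of Pax2. Its summed principal cell markers, 1146 CPM, were also the lowest of the group. Without it, an alternative chosen after seeing the data, the same number of members was called (7), with 1.17 for Pax2 and 1.69 for Tfcp2l1.

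**Figure D2:**
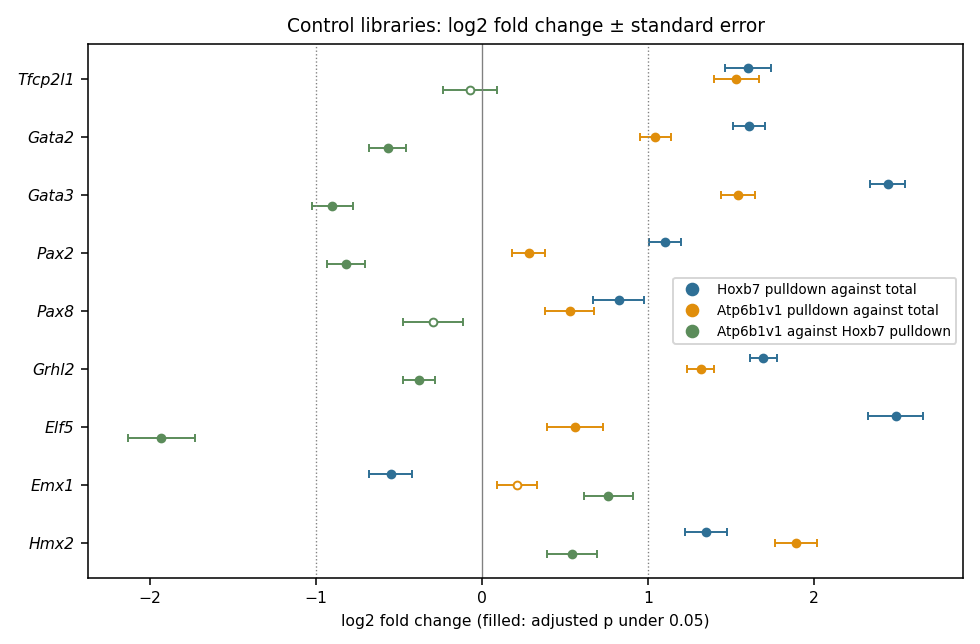
Log2 fold change ± standard error (horizontal axis) of 9 members in the control libraries for the Hoxb7 pulldown against total RNA, the Atp6b1v1 pulldown against total RNA and the Atp6b1v1 against the Hoxb7 pulldown. Filled points passed the adjusted p of 0.05, dotted lines mark the fold limit, and Dlx5 is left out for its few counts. Elf5 is at -1.93 between the pulldowns.

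Set directly against each other, the pulldowns differed in 1 called member, Elf5, where 4.11% of all genes were called. Elf5 was 3.8-fold lower in the Atp6b1v1 than in the Hoxb7 controls (log2 fold change -1.93, SE 0.20, adjusted p = 8.62e-10), and the groups did not overlap. In the first of 3 series of library numbers Elf5 was at 42.6 to 61.0 CPM (Hoxb7) and 5.28 to 8.48 CPM (Atp6b1v1). In the second it was at 20.8 to 49.1 CPM (Hoxb7) and 7.80 to 15.9 CPM (Atp6b1v1). In the third it was closer, at 26.1 and 33.3 CPM (Hoxb7) and 9.96 to 16.6 CPM (Atp6b1v1). The Hoxb7 libraries of the third series are of females, and the Atp6b1v1 libraries are of a female and of males of 3 months. Of the members, 7 passed the adjusted p alone, against 9.93% of all genes. Lower in the Atp6b1v1 controls were Gata3 (-0.90, SE 0.12), Pax2 (-0.82, SE 0.11), Gata2 (-0.57, SE 0.11) and Grhl2 (-0.38, SE 0.10), and higher were Emx1 (0.76, SE 0.15) and Hmx2 (0.54, SE 0.15), with adjusted p from 4.31e-07 to 0.0124. Of these 6 only Emx1 did not overlap between the groups. Among males alone Gata3 (-1.25) and Pax2 (-1.11) passed the fold limit too, which makes 3 members called. Male Atp6b1v1 controls 14, 15 and 16 are of 3 months and of the third series. The male Hoxb7 controls are all of 5.5 months and of the first or second series. Driver is thus mixed with age and series among the male controls.

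Tfcp2l1 (-0.07, SE 0.16, adjusted p = 0.890) and Pax8 (-0.29, SE 0.18, adjusted p = 0.387) did not pass. Principal cell markers ran the same way as Elf5: 5 of 8 were called lower in the Atp6b1v1 pulldown, with Aqp2, the water channel, at -2.57 (SE 0.18, adjusted p = 1.43e-14). Of 8 intercalated cell markers 1 was called higher and 6 passed the adjusted p, with a median of 0.64. The part of cell type in the differences between members was not tested.

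Relatives of the members and other lists were counted in the same fits. Of 29 family relatives 10 were called higher in the Hoxb7 and 9 in the Atp6b1v1 pulldown and 0 lower. Hmx3, the close relative of Hmx2, had the highest value of any list gene in the Hoxb7 pulldown (2.70, SE 0.26, adjusted p = 1.20e-12) and in the Atp6b1v1 pulldown (2.62, SE 0.26, adjusted p = 1.73e-12), at a low mean level of 1.65 and 1.59 CPM. Wnt9b, a signal made by the duct, was next in Hoxb7 at 2.49, and Oxgr1 of intercalated cells in Atp6b1v1 at 2.37. Ehf, an ETS relative of Elf5, was called in both, at 2.13 (Hoxb7) and 1.34 (Atp6b1v1).

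The lowest of the lists were Pvalb of the distal convoluted tubule (-4.94 in Hoxb7 and -4.74 in Atp6b1v1), Slc5a2 of the proximal tubule (-3.60, Hoxb7) and Upk2 of the urothelium (-4.09, Atp6b1v1). Between the pulldowns Upk2 was at -2.40, and the immune genes C1qa and Cd3e were the highest at 2.61 and 2.26. Of 20 genes known as targets of such factors in the duct, 7 were called higher and 2 lower in the Hoxb7 pulldown, and 3 and 2 in the Atp6b1v1 pulldown. Of 19 other kidney transcription factors, 5 were called higher and 5 lower in the Hoxb7 pulldown and 4 and 3 in the Atp6b1v1 pulldown.

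The response to each injury was read in the 22 male pulldowns of mice of 5.5 months, in 1 fit. After volume depletion in the Hoxb7 pulldown 4 of 10 members were called, Gata3, Pax2 and Elf5 lower and Dlx5 higher, where 16.4% of all genes were called; these 4 were also all that passed the adjusted p, against 35.5%. After ischemia in the Hoxb7 pulldown 0 members were called by edgeR and 0 by DESeq2, where 2.3% of all genes were called, but 4 passed the adjusted p alone, all lower, against 6.13%, and 6 had an unadjusted p under 0.05, against 20.6% of all genes. In the Atp6b1v1 pulldown 0 were called after ischemia by edgeR and by DESeq2 (2.82% of all genes; 1 member at an unadjusted p under 0.05, against 23.9% of all genes), and 1, Dlx5, after volume depletion (5.15% of all genes).

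**Figure D3:**
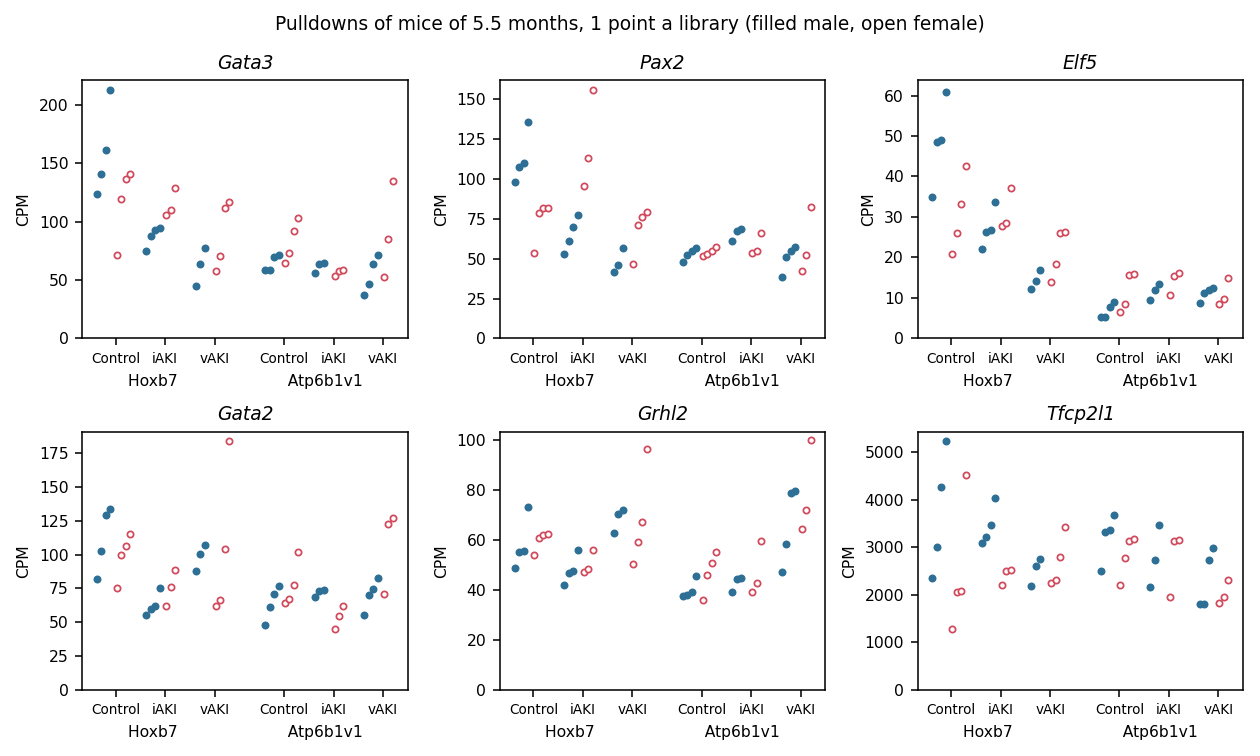
CPM of 6 members (vertical axes, each from 0) in the pulldowns of mice of 5.5 months, by driver and condition. Each point is 1 library, filled for males and open for females, and points of a group are ordered by value, which is not the order of the replicates. The male Hoxb7 libraries of Elf5 lie at 34.9 to 61.0 CPM in controls and at 12.2 to 17.0 CPM after volume depletion.

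Elf5 had the largest fall of these members. Male Hoxb7 controls were at 48.6, 61.0, 49.1 and 34.9 CPM, the ischemic mice at 26.3, 22.1, 33.75 and 26.8 CPM and the volume-depleted at 17.0, 12.2 and 14.1 CPM. No library of either injury reached the lowest control, and the volume-depleted lay below all ischemic ones. The log2 fold change was -1.74 (SE 0.22, adjusted p = 2.81e-06) for volume depletion and -0.82 (SE 0.19, adjusted p = 0.0132) for ischemia. Volume depletion against ischemia gave -0.93 (SE 0.21, adjusted p = 0.00168), and passed the fold limit without vAKI Hoxb7 replicate 4, at -1.04. For ischemia the adjusted p was 0.0612 without Control Hoxb7 replicate 3.

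Elf5 in the Atp6b1v1 males was at 5.28, 5.28, 9.12 and 7.80 CPM in controls, 13.4, 9.53 and 11.9 CPM after ischemia and 8.70, 11.3, 12.0 and 12.3 CPM after volume depletion. The ischemic libraries lay above all controls, at a log2 fold change of 0.75 (SE 0.21, adjusted p = 0.0305), and the volume-depleted overlapped with them at 0.70 (SE 0.20, adjusted p = 0.0216). Both were under the fold limit, and each lost its adjusted p in 4 of the fits that left out a library, with values up to 0.161 for ischemia and 0.0888 for volume depletion. The female libraries overlapped between conditions, at 6.61 to 15.9 CPM in controls, 10.6 to 16.1 CPM after ischemia and 8.53 to 15.0 CPM after volume depletion. In females alone the log2 fold changes were 0.26 (SE 0.31, adjusted p = 0.680) for ischemia and -0.07 (SE 0.31, adjusted p = 0.944) for volume depletion. The difference of the responses in males, Atp6b1v1 minus Hoxb7, was 1.56 (SE 0.28, adjusted p = 0.00397) for ischemia and 2.44 (SE 0.29, adjusted p = 7.54e-05) for volume depletion.

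Gata3 in the male Hoxb7 controls was at 124, 161.5, 212.5 and 141 CPM. After ischemia it was at 92.6, 94.3, 87.5 and 75.1 CPM and after volume depletion at 77.2, 45.0 and 63.4 CPM. Neither injury overlapped with the controls, and the 2 injuries overlapped with each other. Its log2 fold changes were -1.36 (SE 0.21, adjusted p = 3.02e-05) for volume depletion and -0.86 (SE 0.19, adjusted p = 0.00907) for ischemia. In the Atp6b1v1 males it was at 58.4, 58.8, 71.7 and 70.0 CPM in controls, 65.0, 63.4 and 56.2 CPM after ischemia and 37.5, 46.6, 64.2 and 71.7 CPM after volume depletion. These groups overlapped, at -0.08 (SE 0.20, adjusted p = 0.882) and -0.22 (SE 0.19, adjusted p = 0.473).

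Pax2 in the male Hoxb7 pulldowns was at 98.3, 135, 110 and 107.5 CPM in controls, 70.0, 61.1, 52.7 and 77.5 CPM after ischemia and 46.2, 41.5 and 56.7 CPM after volume depletion. Both injuries lay below all controls, at -0.77 (SE 0.14, adjusted p = 0.00256) for ischemia and -1.22 (SE 0.16, adjusted p = 3.40e-06) for volume depletion. In the Atp6b1v1 males it was at 56.7, 54.5, 52.6 and 48.1 CPM in controls, 67.2, 68.9 and 60.8 CPM after ischemia and 57.3, 38.4, 51.2 and 54.7 CPM after volume depletion. The ischemic libraries lay above all controls, yet 0.30 (SE 0.15, adjusted p = 0.225) did not pass, and volume depletion gave -0.06 (SE 0.14, adjusted p = 0.859).

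The difference between the drivers was called for 2 members in ischemia, where 3.49% of all genes were called, and for 3 in volume depletion, where 2.93% were. The 2 were Elf5 and Pax2 (1.08, SE 0.20, adjusted p = 0.00476), and the 3 were Elf5, Pax2 (1.17, SE 0.21, adjusted p = 0.00259) and Gata3 (1.14, SE 0.28, adjusted p = 0.0200). For Gata2 the ischemia difference was 0.96 (SE 0.23, adjusted p = 0.0153), just under the fold limit. Gata3 lost its call without Control Hoxb7 replicate 4, vAKI Atp6b1v1 replicate 7 or vAKI Hoxb7 replicates 6 or 7, with adjusted p up to 0.0766. Pax2 in ischemia lost it without Control Hoxb7 replicate 3 or iAKI Hoxb7 replicate 6, where its value was 0.98 in both and stayed past the adjusted p. With both sexes and sex as a covariate 0 members were called in ischemia and 1 in volume depletion, and in females alone 0 in each. Shares of all genes called in these fits are not given here. In females alone the ischemia difference had the opposite sign for Pax2, at -0.64 (SE 0.32, adjusted p = 0.701), and for Gata2, at -0.17 (SE 0.42).

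**Figure D4:**
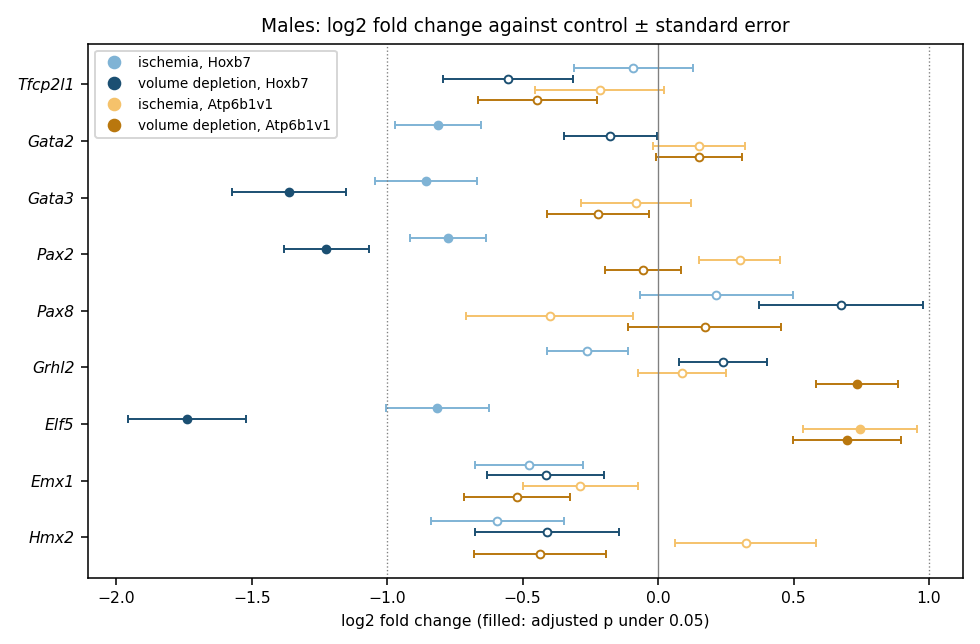
Log2 fold change ± standard error (horizontal axis) of 9 members against control in males, for ischemia and volume depletion in the Hoxb7 and Atp6b1v1 pulldowns. Filled points passed the adjusted p of 0.05, dotted lines mark the fold limit, and Dlx5 is left out for its few counts. Elf5 lies at -1.74 in the volume-depleted Hoxb7 and at 0.70 in the volume-depleted Atp6b1v1 pulldown.

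Principal cell markers fell in the same libraries. In the Hoxb7 males 4 of 8 were called lower after ischemia and 7 passed the adjusted p, and 6 were called after volume depletion and 8 passed. Their summed level was 2802 to 3646 CPM in controls, 1072 to 1315 CPM after ischemia and 1174 to 1261 CPM after volume depletion. The sum in the Atp6b1v1 males was 846 to 866 CPM in controls, 759 to 1128 CPM after ischemia and 721 to 913 CPM after volume depletion. The difference between the drivers was called for 6 of 8 of these markers in ischemia and 4 in volume depletion. Aqp2 was at -1.69 after ischemia and -1.47 after volume depletion in Hoxb7, and Avpr2, the vasopressin receptor, at -1.33 and -2.97. Among urothelial markers in the Hoxb7 males, Upk3a was called lower after ischemia (-1.07, SE 0.31, adjusted p = 0.0412). Upk1b was at -0.75 (SE 0.17, adjusted p = 0.0107), and Upk2 (-1.03) and Upk1a (-0.53) did not pass. The part of the principal cell and urothelial shares in the falls of Elf5, Gata3 and Pax2 was not tested.

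Libraries carry numbers in 3 series, and the series moves with some levels. All injured Hoxb7 libraries are of the first series, as are 2 of the 4 male Hoxb7 controls. Within the first series Elf5, Gata3 and Pax2 after volume depletion were at -1.92, -1.23 and -1.27 in mean log2 CPM, and -1.02, -0.70 and -0.84 after ischemia, with no overlap in any. A fit of the first series alone, chosen after seeing the data, called the same number of members (4) for volume depletion in Hoxb7 and called 1, Elf5 at -1.02 (SE 0.18, adjusted p = 0.00213), for ischemia. Leaving out each library in turn kept the calls of these 3 members for volume depletion.

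Gata2 in the male Hoxb7 pulldowns was at 103, 134, 129 and 82.1 CPM in controls, 59.5, 75.3, 55.6 and 61.9 CPM after ischemia and 101, 87.6 and 107 CPM after volume depletion. The ischemic libraries lay below all controls and all volume-depleted ones, at -0.81 (SE 0.16, adjusted p = 0.00469) against controls. Volume depletion against control gave -0.18 (SE 0.17, adjusted p = 0.459), and against ischemia 0.64 (SE 0.17, adjusted p = 0.00572). Gata2 in the Atp6b1v1 males was between 47.9 and 83.0 CPM in all 3 conditions, at 0.15 for each injury with adjusted p of 0.643 and 0.565.

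Grhl2 was at 55.1, 73.1, 55.4 and 48.9 CPM in male Hoxb7 controls, 41.9, 55.9, 46.8 and 47.4 CPM after ischemia and 71.99, 70.2 and 62.6 CPM after volume depletion. Neither injury passed against control, at -0.26 (SE 0.15, adjusted p = 0.347) and 0.24 (SE 0.16, adjusted p = 0.275), but volume depletion lay above ischemia without overlap, at 0.50 (SE 0.16, adjusted p = 0.0193). That p rose above 0.05, up to 0.0611, without iAKI Hoxb7 replicate 4 or vAKI Hoxb7 replicates 4 or 6. In the Atp6b1v1 males it was at 37.9, 37.4, 38.9 and 45.55 CPM in controls, 44.5, 39.1 and 44.8 CPM after ischemia and 47.1, 58.4, 79.6 and 78.55 CPM after volume depletion. All 4 volume-depleted libraries lay above all controls, at 0.74 (SE 0.15, adjusted p = 0.00257), which is 1.66-fold. By series the rise was 0.48 in the first and 0.91 in the second, and in the fit of the first series alone it no longer passed (0.48, adjusted p = 0.0809). Against ischemia it was 0.65 (SE 0.16, adjusted p = 0.00490).

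Counted by adjusted p alone, 1 member passed in the Atp6b1v1 pulldown after ischemia (Elf5), against 8.51% of all genes, and 3 after volume depletion (Grhl2, Elf5 and Dlx5), against 14.6%. The median log2 fold change of the 10 members was -0.68 and -0.41 in Hoxb7 for ischemia and volume depletion, and 0.00 and 0.05 in Atp6b1v1, where the median of all genes was 0.00 in each.

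Tfcp2l1 was not called in either pulldown after injury. Its male Hoxb7 controls were at 5233 and 4274 CPM in the first series and at 2360 and 2998 CPM in the second, the ischemic mice at 3471, 3080, 4041 and 3222 CPM and the volume-depleted at 2756, 2603 and 2192 CPM. Injured and control libraries overlapped over both series and did not overlap within the first, where the difference from controls in mean log2 CPM was -0.46 after ischemia and -0.92 after volume depletion. Over both series the fitted values were -0.09 (SE 0.22, adjusted p = 0.891) and -0.56 (SE 0.24, adjusted p = 0.0757). The fit of the first series alone put volume depletion at -0.90 (SE 0.16, adjusted p = 0.000242), below the fold limit. In the Atp6b1v1 males it ran from 2491 to 3687 CPM in controls, 2173 to 3474 CPM after ischemia and 1799 to 2985 CPM after volume depletion, at -0.22 (SE 0.24) and -0.45 (SE 0.22) with adjusted p of 0.630 and 0.186.

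Pax8 in the male Hoxb7 pulldowns ran from 225.5 to 359.8 CPM in controls, 314 to 395 CPM after ischemia and 344 to 571 CPM after volume depletion. The fitted values were 0.22 (SE 0.28, adjusted p = 0.731) and 0.68 (SE 0.30, adjusted p = 0.0882). Within the first series the injured libraries lay above the 2 controls without overlap. The differences in mean log2 CPM there were 0.50 after ischemia and 0.94 after volume depletion. In Atp6b1v1 the spread was wide, 158.5 to 407 CPM in controls, 129 to 303 CPM after ischemia and 205 to 429 CPM after volume depletion, and neither passed (-0.40 and 0.17, adjusted p of 0.469 and 0.749). Hmx2 was at 30.8, 26.35, 53.0 and 26.1 CPM in male Hoxb7 controls and at 18.6 to 25.5 CPM after ischemia, below all controls. That difference of -0.59 (SE 0.25, adjusted p = 0.161) did not pass, nor did -0.41 (SE 0.27, adjusted p = 0.252) after volume depletion.

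Hmx2 in the Atp6b1v1 males was at 32.3 to 44.2 CPM in controls, 50.02, 61.0 and 29.7 CPM after ischemia and 19.8 to 31.8 CPM after volume depletion. The values of 0.32 (SE 0.26, adjusted p = 0.492) and -0.44 (SE 0.24, adjusted p = 0.252) did not pass, though the volume-depleted libraries lay below all controls. By series the ischemia difference in mean log2 CPM was 0.72 in the first and -0.45 in the second, which holds 1 ischemic library. Volume depletion against ischemia was -0.76 (SE 0.26, adjusted p = 0.0315), with an adjusted p of up to 0.183 without iAKI Atp6b1v1 replicate 4. Emx1 was at 15.8 to 31.0, 13.9 to 19.2 and 14.8 to 20.4 CPM in Hoxb7 and at 31.1 to 49.5, 32.8 to 37.4 and 22.3 to 38.6 CPM in Atp6b1v1 (controls, ischemia, volume depletion). Its fitted values lay between -0.29 and -0.52 in the 4 comparisons, with adjusted p from 0.0786 to 0.446. Within the first series the Hoxb7 differences of Emx1 in mean log2 CPM were -0.09 after ischemia and -0.02 after volume depletion, with overlap.

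Dlx5 was the 1 member that went from the floor to a measurable level. Over the 55 libraries outside volume depletion it had at most 9 counts (0.336 CPM), and 37 of them had 0. The male Hoxb7 libraries after volume depletion held 115, 164 and 227 counts, or 5.79, 5.93 and 9.34 CPM. In females after volume depletion 1 of 4 Hoxb7 libraries stood out, with 88 counts (4.27 CPM), and the others held 0, 4 and 0. Those others have consecutive library numbers, while the library with 88 counts is numbered next to the male with 115 counts. Sex and library order are thus partly mixed here.

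In the Atp6b1v1 pulldowns after volume depletion the males held 0, 9, 64 and 46 Dlx5 counts, at up to 4.09 CPM, and the females 15, 38 and 42 counts, at 0.915 to 3.15 CPM. In all, 9 of the 14 volume-depleted libraries lay above every other library, 4 in Hoxb7 and 5 in Atp6b1v1. Summed counts per library size gave ratios to the controls of 151 (95% interval 58.8 to 558) in male and 9.66 (5.15 to 20.0) in female Hoxb7, and of 127 (22.4 to 5075) in male and 88.1 (23.7 to 738) in female Atp6b1v1 libraries. These intervals cover counting error only. edgeR called Dlx5 in males for Hoxb7 (adjusted p = 3.74e-05) and Atp6b1v1 (adjusted p = 0.00234).

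**Figure D5:**
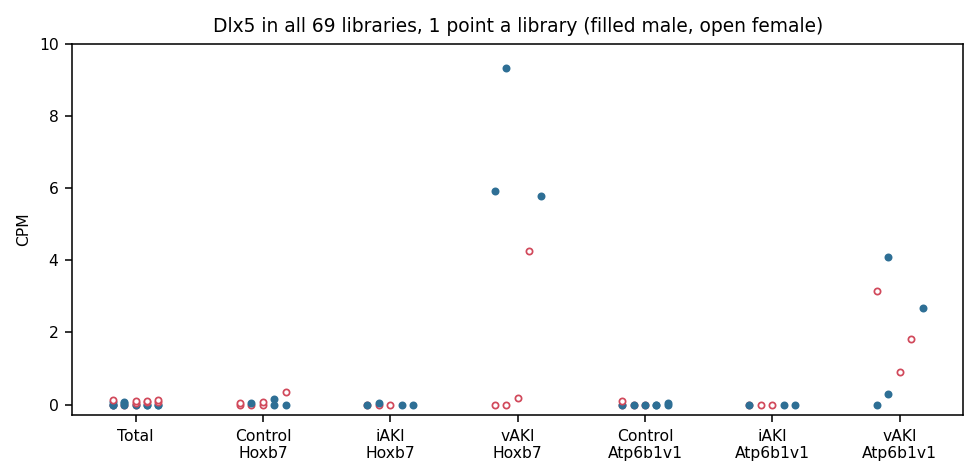
CPM of Dlx5 (vertical axis) in all 69 libraries by group (horizontal axis), 1 point a library, filled for males and open for females. Outside volume depletion no library is above 0.336 CPM, while the 3 male Hoxb7 libraries after volume depletion lie between 5.79 and 9.34 CPM.

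The Dlx5 counts of the Atp6b1v1 males were split by series: 0 and 9 in the first and 64 and 46 in the second. In a fit of the first series alone the call was lost there (adjusted p = 0.328), and it was kept in Hoxb7 (adjusted p = 2.08e-06). Dlx6, its genomic neighbour and usual partner, had at most 1 count in any library. Dlx3, another relative, went the other way in the male Hoxb7 pulldown, at -1.46 (SE 0.34, adjusted p = 0.00178). Volume depletion against ischemia called 1 member in each pulldown, Dlx5, where 14.7% of all genes were called in Hoxb7 and 11.6% in Atp6b1v1. The Atp6b1v1 call was lost when only the compared groups were fitted, with 0 members called. In females alone 0 were called in Hoxb7 and 2 in Atp6b1v1. In that comparison Pax2 was at -0.45 (SE 0.15, adjusted p = 0.0253) in Hoxb7, and the adjusted p reached 0.141 without vAKI Hoxb7 replicate 6.

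The other lists moved beside the members. In the Hoxb7 males after volume depletion 3 of 29 family relatives were called higher and 3 lower, and the highest list genes were Wnt11 of duct tips (4.35, SE 0.56, adjusted p = 4.03e-06) and Gata6 (3.45, SE 0.40, adjusted p = 1.17e-06). The lowest were Avpr2 and Insrr of intercalated cells (-2.84, SE 0.52, adjusted p = 1.76e-04). Of 20 target genes 5 were called higher and 5 lower there, of 19 other kidney transcription factors 5 and 2, and of 8 intercalated cell markers 4 were called lower, with the sum at 588 to 1099 CPM against 937 to 1341 CPM in controls.

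After ischemia in Hoxb7 0 of 29 relatives were called, with 1 higher by adjusted p. Of 20 targets 4 were called lower. Col1a1 of stromal cells (2.83) and Sox9 (2.57), a factor of regrowing tubules, were the highest list genes. Ucp1 of brown fat (-4.28) and Slc4a1 of intercalated cells and red cells (-2.15) were the lowest. The other intercalated cell markers did not pass the adjusted p, with values from -1.26 (Insrr) to 0.01 (Slc4a9). Of 4 stromal markers 3 rose, with a sum of 61.2 to 199.8 CPM against 21.9 to 53.8 CPM in controls, and of 4 fat cell markers 4 fell, from 46.3 to 124 CPM to 11.7 to 33.1 CPM. The part of these cells in the members' values was not tested.

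In the Atp6b1v1 males after ischemia 0 relatives were called and 1 of 20 targets fell, with Sox9 (2.94) and Col1a1 (2.53) highest and Slc34a1 (-2.43) and Slc5a12 (-2.37) of the proximal tubule lowest. After volume depletion 1 relative rose (Gata6, 1.77) and 1 fell (Hmx3, -1.46), and of 20 targets 6 rose and 1 fell. Slc14a2, the urea transporter, was at 2.15, and Ucp1 (-2.48) and Insrr (-2.01) were lowest. Hmx3 fell in Hoxb7 as well (-1.25, SE 0.40, adjusted p = 0.0185). Volume depletion against ischemia gave Wnt11 as the highest list gene in both pulldowns (5.25 and 3.81), followed by Slc5a12 (3.43) in Atp6b1v1. The lowest were Col1a1 (-2.19 and -2.12), Slc12a3 (-1.80) in Hoxb7 and Ucp1 (-3.73) in Atp6b1v1.

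The sexes were compared in the 43 pulldowns of mice of 5.5 months. Pax2 in Hoxb7 was at 82.0, 53.55, 81.9 and 78.6 CPM in female controls of 5.5 months, 95.3, 156 and 113 CPM after ischemia and 76.3, 46.5, 79.2 and 70.9 CPM after volume depletion. The female controls lay below all male controls (98.3 to 135 CPM), and the ischemic females lay above all female controls. The difference of the responses, female minus male, was called for 1 member in ischemia, Pax2 (1.49, SE 0.26, adjusted p = 0.00267), where 6.98% of all genes were called. In volume depletion it was called for 2, Pax2 (1.10, SE 0.26, adjusted p = 0.00630) and Elf5 (1.20, SE 0.37, adjusted p = 0.0264), where 10.8% were. The injured Hoxb7 libraries are all of the first series of library numbers, but the female controls are 1 of the first (82.0 CPM of Pax2), 1 of the second and 2 of the third series, and the male controls 2 of the first and 2 of the second. Sex and series of these controls cannot be told apart in this fit.

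Elf5 was at 42.6, 20.8, 26.1 and 33.3 CPM in female Hoxb7 controls, 28.5, 27.8 and 37.2 CPM after ischemia and 26.4, 18.5, 25.9 and 13.9 CPM after volume depletion. Both injured groups overlapped with the controls, and the volume-depleted lay below the ischemic. The volume-depleted library at 13.9 CPM is numbered apart from the other volume-depleted females and next to a volume-depleted male. Sex and library order are thus partly mixed in the volume-depleted Hoxb7 libraries. Gata3 was at 120, 71.5, 141 and 136 CPM in female controls, 105.5 to 129 CPM after ischemia and 57.6 to 117 CPM after volume depletion, and its sex difference of 0.96 (SE 0.35, adjusted p = 0.0540) did not pass for volume depletion. In females alone 0 members were called for Hoxb7 volume depletion: Gata3 was at -0.40 (SE 0.26, adjusted p = 0.774), Pax2 at -0.12 (SE 0.21, adjusted p = 0.939) and Elf5 at -0.54 (SE 0.28, adjusted p = 0.690). The share of all genes called in females alone is not given here. The study reports more variable expression in females than in males. In females alone Pax2 after ischemia had the opposite sign to males, at 0.72 (SE 0.22, adjusted p = 0.0679).

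The calls of the sex difference in volume depletion rest on single libraries. Without Control Hoxb7 replicate 6, the female control with low duct genes, 0 members were called, and Pax2 was at 0.98 with the adjusted p at 0.0256. Elf5 lost its adjusted p in 7 of the leave-one-out fits, those without Control Hoxb7 replicates 3, 6 or 9 or vAKI Hoxb7 replicates 1, 3, 6 or 7, with values from 1.05 to 1.39. Principal cell markers of the female Hoxb7 controls summed to 1146 to 2581 CPM, of the ischemic females to 1550 to 3107 CPM and of the volume-depleted to 1219 to 2238 CPM. The sex difference was called for 6 of 8 of these markers in ischemia and 7 in volume depletion, all higher. The part of these markers in the members' sex differences was not tested.

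In the Atp6b1v1 pulldowns no member was called for a difference in response between the sexes. For ischemia edgeR called 0 members and 0% of all genes, 1 member (Hmx2, at -0.89) had an unadjusted p under 0.05, against 3.19% of all genes, and DESeq2 called 0 members. For volume depletion edgeR called 0 members and 0% of all genes, 0 members had an unadjusted p under 0.05, against 8.29% of all genes, and DESeq2 called 0. Grhl2 in females was at 45.8, 35.8, 55.2 and 50.9 CPM in controls and 72.1, 64.4 and 100.0 CPM after volume depletion, with no overlap. In females alone its rise was 0.75 (SE 0.21, adjusted p = 0.0187), against 0.74 in males. The list genes with the highest and lowest sex differences in Hoxb7 were Slc4a1 (2.97), Aqp3 (2.70), Sox9 (-4.05) and Sox17 (-2.76) for ischemia. For volume depletion they were Avpr2 (3.18), Insrr (2.55), Pax5 (-5.64) and Wnt11 (-4.25). Between the drivers they were Ucp1 (5.53), Adipoq (2.46), Slc34a1 (-1.95) and Kdr (-1.88) for ischemia and Avpr2 (2.65), Aqp4 (2.56), Wnt11 (-2.62) and Slc22a6 (-1.95) for volume depletion.

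Over the 48 pulldowns each member was set beside the 13930 genes of at least 1 CPM on average, by Pearson's r of log2 CPM, as a description. Nearest to Elf5 were Styk1 (r = 0.95), Nyap1 (0.92) and Muc20 (0.89), and nearest to Gata3 were Upk1b (0.84), Ehf (0.81) and Bmpr1b (0.80). Pax2 lay nearest to Itm2a (0.82), Fam149a and Rab15, and Grhl2 to Hs3st3b1 (0.85), Fut4 and Fam110a. Tfcp2l1 had Vwa8 (0.83), Marf1 and Snx19, Gata2 had Adra2a (0.80), Magee1 and Efnb2, and Pax8 had Pip5k1a (0.81), Agfg2 and Papd7. Emx1 and Hmx2 shared Gm7325 among their nearest (0.82 and 0.70), beside Hoxd10 and Bsnd for Emx1 and Smim5 and Tdrp for Hmx2. Dlx5 had Cyp2t4 (0.94), H1f0 and Hspa14, which rests on its few libraries with counts. Among the members the highest values were 0.78 for Gata3 with Pax2, 0.76 for Gata3 with Elf5, and 0.73 for both Pax2 with Elf5 and Grhl2 with Dlx5. Gata2 followed, at 0.68 with Grhl2 and 0.67 with Gata3. The libraries share driver, condition, sex and series, so these values describe the groups as much as single libraries.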

How the data were processed

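Per the submitters' processing notes, reads were handled with CASAVA 1.8.2, Trimmomatic 0.36, STAR 2.5.3a and HTSeq 0.6.1p2 on mm10. The deposited table holds whole-number read counts, which the authors did not scale, for each gene in 69 libraries. The annotation behind its symbols is not given in the sources used here. The members and gene lists were chosen with earlier results of these data known.

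A gene was tested when its summed count over the libraries reached 2 (21175 genes). TMM scaling, dispersions and quasi-likelihood tests came from edgeR 4.0.16 with limma 3.58.1 in R 4.3.3, with Benjamini-Hochberg adjustment over all genes tested, and DESeq2 1.42.0 was an alternative. Control libraries (42), male pulldowns of 5.5 months (22) and pulldowns of both sexes (43, for sex differences) were fitted apart. Control pulldowns and total RNA may come from the same mice and were taken as independent. Log2 CPM used a prior count of 2. TPM used exon lengths for 23379 of 24411 genes. Dispersions were 0.0473 (controls), 0.0444 (males) and 0.0606 (pulldowns). Among 388 pairs of libraries within groups 0 were identical. The fits were tested on simulated data. Figures used Python 3.11 and matplotlib 3.10.9.

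All 10 members were named in every comparison. Of the other lists, those called with the 2 highest and 2 lowest log2 fold changes in each comparison were named, and other list genes were named after their values were seen. One list gene is not reported here. For each member the 3 genes most like it were given. Intervals of count ratios cover counting error only. Alternatives were other size factors, other filters, no fold limit, DESeq2, other sets of sexes, a replicate block and leaving out each library. A fit of the first library number series and one without Control Hoxb7 replicate 6 were added after seeing the data.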

Additional observations from a re-analysis of the deposited data

Results flagged for a closer look

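In 85 checks of single libraries against their group, 7 stood apart from the rest by Dixon's criterion, which chance passes in about 1 group in 20. Hmx2 was at 52.99 CPM in Control Hoxb7 replicate 4. Dlx5 was at 0.3364 CPM in Control Hoxb7 replicate 6. Gata2 was at 184 CPM in vAKI Hoxb7 replicate 5, where the other libraries of the group lay between 61.7 and 107 CPM. Grhl2 was at 59.36 CPM in iAKI Atp6b1v1 replicate 6. Pax2 (82.43 CPM) and Emx1 (60.81 CPM) both stood apart in vAKI Atp6b1v1 replicate 5, and Pax8 was at 429.1 CPM in vAKI Atp6b1v1 replicate 2.

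Responses that differed between the drivers by a test of the difference (edgeR, Atp6b1v1 minus Hoxb7, males) were those of Gata2 (0.96), Pax2 (1.08) and Elf5 (1.56) to ischemia and of Gata3 (1.14), Pax2 (1.17) and Elf5 (2.44) to volume depletion. Responses in Hoxb7 that differed between the sexes by such a test (female minus male) were those of Pax2 to ischemia (1.49) and of Pax2 (1.10) and Elf5 (1.20) to volume depletion.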

How the results depend on the processing

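DESeq2 called as many members as edgeR in all 15 comparisons. Of 2847 member values under alternatives, 2743 stayed on their side of the threshold, 151 of them with a turned sign and an adjusted p of 0.05 or more both times, 54 passed it newly, 44 no longer passed and 6 reversed. The 6 reversals came in females only: Elf5 was at 0.028 after ischemia in Hoxb7 and -0.068 after volume depletion in Atp6b1v1, Pax2 at 0.72 after ischemia in Hoxb7, Hmx2 at 0.017 for volume depletion against ischemia in Atp6b1v1, and the driver difference in ischemia was -0.17 for Gata2 and -0.64 for Pax2. The cause was not tested. With no fold limit, members called rose from 1 to 7 between the control pulldowns, 5 to 8 for Atp6b1v1 against total, 0 to 4 (Hoxb7) and 0 to 1 (Atp6b1v1) for ischemia, 1 to 3 for volume depletion in Atp6b1v1, and 1 to 5 (Hoxb7) and 1 to 3 (Atp6b1v1) between the injuries. Males only gave 3 between the control pulldowns. With both sexes, 2 members were called for volume depletion in Hoxb7, and 0 and 1 for the driver difference in ischemia and volume depletion. With females only, 0 were called in these 3 and between the injuries in Hoxb7, and 2 between the injuries in Atp6b1v1. The first series alone gave 1 for ischemia in each driver, 0 for volume depletion in Atp6b1v1, 2 between the injuries in Atp6b1v1 and 5 for the driver difference in ischemia. Fitting the compared groups only gave 0 between the injuries in Atp6b1v1. Leaving out 1 library gave 1 to 4 for the driver difference in ischemia, 1 to 2 for the sex difference in ischemia in Hoxb7 and 0 to 4 in volume depletion, and 1 to 3 (Atp6b1v1) and 1 to 2 (Hoxb7) between the injuries. Shares of all genes called under these alternatives are not given here, so the counts describe the members only.

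Deviations of same-numbered libraries correlated at a mean r of -0.001 in males, 0.038 in controls and 0.043 in pulldowns. A shared number can join different genotypes, as Control Hoxb7 Pulldown 4 and Control Total 4 (Atp6b1v1) do. It therefore cannot show whether pulldown and total libraries came from the same mice, nor can a block by replicate number. With a replicate block, members called for the driver difference were 0 in ischemia and 1 in volume depletion, for the Hoxb7 sex difference 0 and 0, for volume depletion 4 in Hoxb7 and 2 in Atp6b1v1, and for Hoxb7 against total 6.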
